A study of Homo sapiens with 6 samples.

Results

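The late-numbered miRNAs above 5 CPM were 70 of the 1155 mature human miRNA rows measured by small RNA sequencing in U2OS osteosarcoma cells. They were selected on measured values, as rows with a miRBase number of 3000 or more and a mean of at least 5 CPM, the read count scaled to a common library total, over all 6 libraries. Of the 443 rows numbered 3000 or more, 367 had a lower mean. Another 6 rows belonged to the 7 names that the selection left out (miR-3144, miR-3615, miR-3648, miR-3651, miR-3653, miR-3654 and miR-3687), and 5 of those had a mean of at least 5 CPM. The mean level was therefore fixed by the selection and is given here as a description.

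U2OS is an established human osteosarcoma cell line. The group with the genotype label LINC00673 (3 libraries) was read as the cells that stably carry a short hairpin RNA against LINC00673, a long intergenic non-coding RNA. The group labelled NC (3 libraries) was read as the cells they were set against, which the series' design text calls wild type. The sample titles of both groups begin with Lv, and it is not stated whether a control construct was present in NC cells, nor whether the shRNA cells were a clone or a pool. LINC00673 itself is no miRNA and has no row in the miRNA table, so its depletion was not checked. Separate cultures are not mentioned for the replicates, and the p-values below therefore cover sample-to-sample spread that may be only technical. The comparison addressed how depletion of LINC00673 alters miRNA levels in osteosarcoma cells.

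MicroRNAs are short RNAs cut from hairpin precursors and loaded into Argonaute proteins, and the seed near the 5′ end sets most of their pairing with target mRNAs. Names are numbered in order of registration, so a high number marks a late discovery, usually by deep sequencing. Many such miRNAs are confined to primates, lie within introns of protein-coding genes and are present at low levels, and some entries overlap fragments of other RNAs such as tRNA or rRNA. A late number is not in itself evidence of a recent evolutionary origin, and no conservation was measured here.

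The mature sequences of the members that carry the results below are printed 5′ to 3′ from RefSeq (GRCh38.p14), with the seed (bases 2 to 8) in capitals. RefSeq held 63 of the 70 members, and miR-4326, miR-9903, miR-5001-3p, miR-10401-3p, miR-4664-3p, miR-3149 and miR-6847-5p are named only. The first set shows the most abundant members, whose seeds all differ.
miR-3200-3p: cACCUUGCgcuacucaggucug
miR-3679-5p: uGAGGAUAuggcagggaagggga
miR-12136: gAAAAAGUcauggaggcc
miR-3187-3p: uUGGCCAUggggcugcgcgg
miR-4467: uGGCGGCGguaguuaugggcuu
miR-4677-3p: uCUGUGAGaccaaagaacuacu
miR-4448: gGCUCCUUggucuaggggua
miR-3613-5p: uGUUGUACuuuuuuuuuuguuc
miR-4521: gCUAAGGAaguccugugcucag

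The second set shows members that share a seed with another member or with miR-134-5p, the abundant case. Seeds were also shared by miR-3679-5p with miR-1185-5p (mean 0.753 CPM), by miR-3167 with miR-876-5p (0.345 CPM) and by miR-5699-3p with miR-4421 (0.443 CPM). The miR-3689 rows below also share their seed with miR-3689f, which is not a member (2.445 CPM). The rows miR-3689a-5p, miR-3689b-5p and miR-3689e have the same sequence over all 22 bases. The first 20 bases of miR-10396a-3p and miR-10396b-3p are the same, and miR-3118 has the seed of miR-134-5p, a miRNA of the imprinted cluster on chromosome 14.
miR-3689a-5p: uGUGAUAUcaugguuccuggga
miR-3689b-5p: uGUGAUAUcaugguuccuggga
miR-3689e: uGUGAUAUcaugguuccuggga
miR-10396a-3p: gGCCCCGGgcccucgaccggg
miR-10396b-3p: gGCCCCGGgcccucgaccggac
miR-3118: uGUGACUGcauuaugaaaauucu
miR-134-5p: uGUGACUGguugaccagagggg

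The third set shows the other members with the smallest p-values in the comparison of the groups.
miR-4479: cGCGCGGCcgugcucggagcag
miR-9901: cGGUCGCCgcgguucgccgcc
miR-6720-3p: cGCGCCUGcaggaacugguaga
miR-6733-5p: uGGGAAAGacaaacucagaguu
miR-4477b: aUUAAGGAcauuugugauugau

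Over the 63 members with a sequence, length was 18 to 24 bases and the median GC content was 52.6%. The median GC content was 47.6% in the 363 other miRNAs above 5 CPM and 54.5% in the 319 late-numbered miRNAs below it. A first base of U was found in 44.4% of members, against 39.7% of the other miRNAs above 5 CPM and 49.5% of the late-numbered miRNAs below it. GC content and the log2 difference between groups had a Pearson correlation of 0.14 and a Spearman correlation of 0.13 across 63 members, which share the same 6 libraries.

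The CPM values came back as whole reads in every library, with a denominator of 380298, 742349 and 762663 reads in LINC00673 replicates 1, 2 and 3, and of 483322, 311448 and 295567 reads in NC replicates 1, 2 and 3. A floor of 3 reads was worth 3.93 to 10.15 CPM, so the selection threshold lay inside the range of the floor. Of the markers checked, miR-21-5p and miR-199a-3p, abundant in mesenchymal cells, stood at 116612 to 181624 CPM and 4117 to 5962 CPM. The mesenchymal miR-214-3p stood at only 3.38 to 9.63 CPM. The blood cell marker miR-142-3p stood at 110 to 203 CPM, while the red blood cell marker miR-451a had no row in the miRNA table. The liver marker miR-122-5p stood at 9.63 to 20.3 CPM. The muscle markers miR-1-3p and miR-133a-3p averaged 2.11 and 0.225 CPM, and the epithelial miR-200c-3p and miR-141-3p averaged 7.56 and 2.70 CPM.

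The members held few reads. In LINC00673 replicates 1, 2 and 3 they summed to 417, 839 and 967 reads, and in NC replicates 1, 2 and 3 to 600, 408 and 358 reads. Their summed level was 1097, 1130 and 1268 CPM in LINC00673 libraries, against 1242, 1310 and 1211 CPM in NC libraries. The group ranges overlapped, with 1165 ± 90.8 CPM in LINC00673 libraries and 1254 ± 50.6 CPM in NC libraries (mean ± SD, n = 3 per group). As a share of the CPM of all listed miRNAs, the members made up 0.157% to 0.178% in LINC00673 libraries and 0.170% to 0.189% in NC libraries.

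The 5 highest members carried 37.8% of the members' summed level and the 10 highest carried 52.9%. The median member had a mean of 8.98 CPM and 26.5 reads over all 6 libraries, and total reads ranged from 12 (miR-9901) to 418 (miR-3200-3p). Only 8 members had at least 100 reads in total, and 41 had fewer than 30. At least 3 reads in every library were found for 18 members. A value of 0 occurred in 17 members, in 1 library for 12 of them and in 2 libraries for 5 of them. The number of members at 0 was 4, 1 and 2 in LINC00673 replicates 1, 2 and 3, and 1, 5 and 9 in NC replicates 1, 2 and 3, with the 9 in the shallowest library. At 3 reads, a count of 0 allows a level of up to 10.15 CPM in that library, above the selection threshold.

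**Figure D1:**
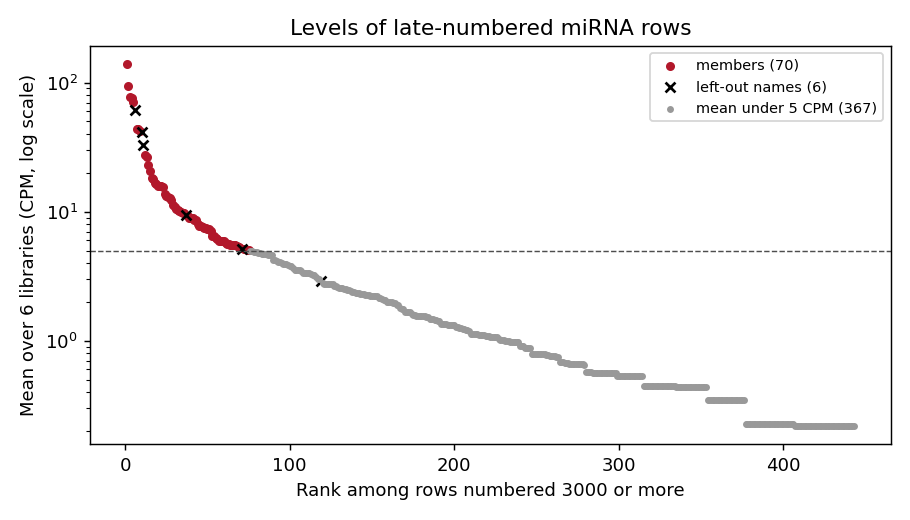
Mean level over the 6 libraries (CPM, log scale) of the 443 rows numbered 3000 or more, in order of level, with the selection threshold of 5 CPM as a dashed line. The 70 members run from 139 CPM (miR-3200-3p) down to 5.05 CPM (miR-3614-5p), and crosses mark the rows of the left-out names.

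The threshold fell in a dense stretch of the distribution. Just inside it were miR-6847-5p, miR-6733-5p and miR-3614-5p, with means of 5.10, 5.08 and 5.05 CPM, and just outside it were miR-4504, miR-4788 and miR-3198, with means of 4.99, 4.98 and 4.88 CPM. miR-6847-5p had 2.63, 5.39 and 7.87 CPM in LINC00673 libraries, against 8.28, 6.42 and 0.0 CPM in NC libraries. miR-3614-5p had 0.0, 8.08 and 3.93 CPM in LINC00673 libraries, against 2.07, 12.84 and 3.38 CPM in NC libraries. In both, the group ranges overlapped, and each was at 0 in a single library. Outside it, miR-4504 had 7.89, 1.35 and 2.62 CPM in LINC00673 libraries, against 8.28, 6.42 and 3.38 CPM in NC libraries. miR-4788 had 5.26, 6.74 and 3.93 CPM in LINC00673 libraries, against 4.14, 6.42 and 3.38 CPM in NC libraries. miR-3198 had 2.63, 4.04 and 2.62 CPM in LINC00673 libraries, against 10.35, 9.63 and 0.0 CPM in NC libraries. In all 3 of these rows the group ranges overlapped.

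Within groups, the SD of a member's CPM was a median of 1.08 times the SD that counting error alone gives. It was below the counting SD in 25 members and over 2 times the counting SD in miR-3679-5p (2.23 times) and miR-4431 (2.45 times). The lowest ratio, 0.0871, belonged to miR-3118. No molecular identifiers are named in the labels, so read floors and intervals cover counting error only.

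**Figure D2:**
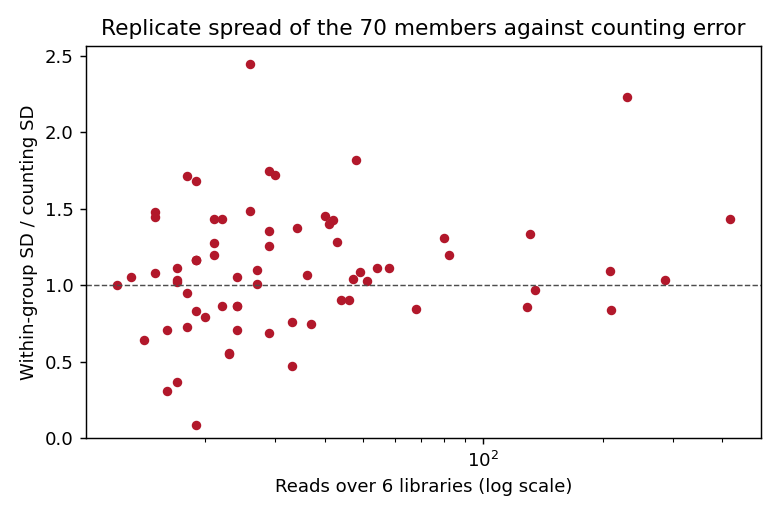
Within-group SD of each of the 70 members divided by the SD expected from counting (vertical axis) against its reads over 6 libraries (horizontal axis, log scale). Points lie around the dashed line at 1 over the whole range from 12 to 418 reads, with miR-4431 and miR-3679-5p highest at 2.45 and 2.23.

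Host context was taken from GENCODE release 29 (GRCh38) for the 63 members placed by RefSeq, of which 59 had a single locus. The loci of miR-3118 (4), miR-4435 (2), miR-5583-3p (2) and miR-6724-5p (2 in the RefSeq table, with an exact match to 4 miR-6724 genes in GENCODE) cannot be told apart by their reads. An intron of a protein-coding gene on the same strand held 30 members, an exon of one held 8, and a non-coding gene or pseudogene on the same strand held 5. Another 7 lay only opposite a gene, and 13 had no GENCODE host. An exon here means an exon of any annotated transcript, including transcripts with a retained intron.

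The intronic members summed to 504 CPM and were led by miR-3200-3p, the highest member of all, at the 87.4th percentile of the table. It lies in an intron of OSBP2, which encodes an oxysterol-binding protein (chr22:30731610-30731631, plus strand). miR-3200-3p had 157.77, 138.75 and 135.05 CPM in LINC00673 libraries, against 167.59, 99.54 and 135.33 CPM in NC libraries. The NC libraries held both the highest and the lowest value. The log2 difference was 0.13 (95% confidence interval -0.42 to 0.67, limma adjusted p = 0.938).

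miR-3679-5p lies in an intron of MGAT5, which encodes an N-acetylglucosaminyltransferase (chr2:134127130-134127152, plus strand). It had 42.07, 86.21 and 86.54 CPM in LINC00673 libraries, against 45.52, 112.38 and 94.73 CPM in NC libraries. Replicate 1 was the low library in both groups, and the ranges overlapped (log2 difference -0.21, interval -0.96 to 0.54, limma adjusted p = 0.921). miR-4677-3p lies in an intron of SDCCAG8, which encodes a centrosomal protein (chr1:243346225-243346246, plus strand). It had 49.96, 47.15 and 48.51 CPM in LINC00673 libraries, against 49.66, 41.74 and 23.68 CPM in NC libraries. The LINC00673 libraries lay close together and NC replicate 3 was low (log2 difference 0.39, interval -0.36 to 1.15, limma adjusted p = 0.800).

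The other intronic members between 10 and 16 CPM were miR-3691-5p (LYRM4), miR-3605-3p (PHC2), miR-7156-5p (ST6GALNAC5), miR-7974 (ZNF653), miR-3662 (HBS1L), miR-3176 (CAPN15), miR-3138 (WDR1) and miR-3173-5p (DICER1). DICER1 encodes the nuclease that cuts miRNA hairpins. miR-3173-5p had 10.52, 8.08 and 17.05 CPM in LINC00673 libraries, against 10.35, 6.42 and 10.15 CPM in NC libraries, and the groups overlapped (log2 difference 0.34, limma adjusted p = 0.921). miR-7156-5p was at 0.0 CPM in NC replicate 2 and at 13.15 to 30.45 CPM in the other 5 libraries.

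Below 10 CPM, the intronic members were miR-3126-3p (ANTXR1), miR-4652-5p (GNGT1), miR-3174 (ZNF710), miR-4766-3p (SLC25A17), miR-3146 (TWISTNB), miR-4653-3p (AP1S1), miR-6505-5p (PFKM), miR-7851-3p (ZCRB1), miR-3684 (METAP1), miR-4804-5p (TNPO1), miR-3167 (KIRREL3), miR-3131 (IHH), miR-7976 (TPRA1), miR-5699-3p (DIP2C), miR-3115 (KDM1A), miR-4479 (TRAF2), miR-3127-5p (CNNM4), miR-5094 (AP3S2) and miR-3940-3p (KHSRP). KHSRP encodes an RNA-binding protein known to take part in processing of some miRNA precursors. The mRNAs of the host genes were not measured here.

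The exonic members were miR-4467 (LRWD1), miR-7706 (AKAP13), miR-10399-5p (ZC3HAV1), miR-3911, miR-6834-5p (PFDN6), miR-10394-5p, miR-6733-5p (EBNA1BP2) and miR-3614-5p (TRIM25). miR-4467 lies in a retained-intron transcript of LRWD1, a gene of the origin recognition machinery (chr7:102471472-102471493, plus strand). It had 34.18, 30.98 and 53.76 CPM in LINC00673 libraries, against 47.59, 48.16 and 47.37 CPM in NC libraries. The NC libraries lay inside the range of the LINC00673 libraries (log2 difference -0.30, interval -1.04 to 0.43, limma adjusted p = 0.857). Reads of exonic members cannot be told apart from fragments of the host transcripts that hold their sequence. For miR-4467 and miR-6834-5p these are retained-intron transcripts only. For miR-6733-5p it is a transcript not annotated as protein-coding.

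Of the members in non-coding genes, miR-12136 was the highest at a mean of 76.0 CPM. RefSeq places it on chr1:632668-632685, minus strand, and its 18 bases also occur exactly in the sense sequence of MT-TS1, a mitochondrial serine tRNA, so the 2 sources cannot be told apart. miR-12136 had 68.37, 45.8 and 62.94 CPM in LINC00673 libraries, against 88.97, 112.38 and 77.82 CPM in NC libraries. The highest LINC00673 library did not reach the lowest NC library. The averages were 59.0 ± 11.8 CPM in LINC00673 libraries and 93.1 ± 17.6 CPM in NC libraries (mean ± SD, n = 3 per group), with a log2 difference of -0.65 (interval -1.28 to -0.02), and the difference missed the threshold (limma adjusted p = 0.418).

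miR-4448 lies in an intron of the pseudogene RPSAP31 (chr3:183886860-183886879, plus strand). It had 26.3, 59.27 and 45.89 CPM in LINC00673 libraries, against 31.04, 44.95 and 43.98 CPM in NC libraries, and the NC range lay inside the LINC00673 range (log2 difference 0.07, interval -0.71 to 0.86, limma adjusted p = 0.976). miR-3613-5p lies in an intron of DLEU2, the non-coding host of the tumour-suppressive miR-15a and miR-16-1 (chr13:49996465-49996486, minus strand). It had 21.04, 24.25 and 34.09 CPM in LINC00673 libraries, against 22.76, 41.74 and 20.3 CPM in NC libraries, with overlapping groups (log2 difference -0.05, interval -0.94 to 0.84, limma adjusted p = 0.988). The other 2 were miR-4435, whose loci lie in CYTOR and MIR4435-2HG, and miR-5583-3p, whose 2 loci overlap each other on opposite strands of chromosome 18.

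Among members that lay only opposite a gene, miR-3187-3p was highest. It lies antisense to an exon of PLPPR3, a phospholipid phosphatase-related gene (chr19:813627-813646, plus strand). It had 71.0, 61.97 and 85.23 CPM in LINC00673 libraries, against 57.93, 77.06 and 67.67 CPM in NC libraries, and the groups overlapped (log2 difference 0.10, interval -0.52 to 0.73, limma adjusted p = 0.958). miR-3934-5p lies opposite UQCC2, miR-4769-5p opposite SYN1, and both arms of the miR-6720 hairpin opposite FOXF2, a forkhead transcription factor gene.

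A pair of these members mirror a better-known miRNA. miR-3074-5p averaged 16.5 CPM and is read from the strand opposite miR-24-1, while miR-24-3p averaged 3579 CPM. miR-3065-5p averaged 13.2 CPM and lies opposite miR-338, whose 3p arm averaged 0.788 CPM. The antisense member was thus the lower one at the first locus and the higher one at the second. miR-24-3p can also come from a second gene, miR-24-2, and no source used here says whether reads were counted by strand. Of 8 names listed as antisense partners, 5 were listed in the table and these 2 were members. Outside that list, miR-4477b also matches the miR-4477a gene exactly in antisense, and miR-4477a averaged 4.58 CPM.

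The 13 members without a GENCODE host were miR-4521, miR-10396b-3p, miR-10396a-3p, miR-3929, miR-4477b, miR-4431, miR-3928-3p, miR-3118, miR-6724-5p, miR-9901 and the 3 miR-3689 rows. In RefSeq, with strand not compared, the miR-3689 rows overlap a long non-coding RNA gene, and loci of miR-3118 overlap POTEB3 and POTED. Several members without a GENCODE host lie at other structured RNA genes in RefSeq. miR-4521 (chr17:8186948-8186969, plus strand) begins 1 base after the end of the serine tRNA gene TRS-GCT4-3 (chr17:8186866-8186947). miR-10396b-3p lies inside RNA45SN1, the 45S ribosomal RNA precursor gene (chr21:8436353-8436374, plus strand), and a locus of miR-6724-5p lies 660 bases from the same gene. Of 19 names listed as carrying sequence of other structured RNAs, 7 had a row and miR-4521 was a member. By its RefSeq position miR-4521 lies directly after the tRNA gene and not inside it. Whether its reads come from the tRNA transcript was not tested. miR-12136 and miR-10396b-3p, which were not in that list, overlap the sequence of a tRNA and the position of an rRNA gene. The first 20 bases of miR-10396a-3p are those of miR-10396b-3p, so its reads may have the same source, which was not tested.

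miR-4521 had 39.44, 28.29 and 22.29 CPM in LINC00673 libraries, against 31.04, 28.9 and 10.15 CPM in NC libraries. NC replicate 3 was low, at 3 reads, and the groups overlapped (log2 difference 0.46, interval -0.51 to 1.43, limma adjusted p = 0.830). miR-10396b-3p had 7.89, 20.21 and 13.11 CPM in LINC00673 libraries, against 24.83, 38.53 and 20.3 CPM in NC libraries, with no overlap (log2 difference -1.01, interval -2.03 to 0.01, limma adjusted p = 0.433). miR-10396a-3p had 7.89, 20.21 and 10.49 CPM in LINC00673 libraries, against 18.62, 32.11 and 20.3 CPM in NC libraries. Its groups overlapped by a single library, and the read counts of the pair were equal in 3 of 6 libraries. The totals of 58 reads for miR-10396b-3p and 51 reads for miR-10396a-3p may count the same reads under both names, and no source used here says how reads that match several miRNAs were treated.

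Identical rows were searched over the whole table, rows with a 0 included. There were 66 sets with 425 rows, but sets that include a 0 held at most 10 reads per row, and only 5 sets with 11 rows were above 0 everywhere. The single set with members was miR-3689a-5p, miR-3689b-5p and miR-3689e. Each had 2.63, 2.69 and 11.8 CPM in LINC00673 libraries, against 8.28, 3.21 and 6.77 CPM in NC libraries, or 1, 2 and 9 reads against 4, 1 and 2 reads. The groups overlapped, with a log2 difference of -0.27 for each row (interval -1.88 to 1.33, limma adjusted p = 0.958). The 3 hairpins lie 298 to 1006 bases apart on the minus strand of chromosome 9. Counted once, they leave 68 members.

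An arm was named for 41 members, 23 of them 5p and 18 of them 3p. The other arm had a row for 29 of these and was the lower one for 28. The member held over 90% of the reads of both arms for 15 members, among them miR-3187-3p (99.5%) and miR-3200-3p (99.1%). The exception was miR-6720-5p, with 32.3% of the reads of its hairpin, at a mean of 7.34 CPM beside 16.8 CPM for miR-6720-3p, itself a member. Arms with a mean under 5 CPM could not be members, so this order follows in part from the selection. The block of names from miR-6715 to miR-6895 is annotated mostly as mirtrons, which are hairpins excised by splicing. It had 88 rows and 6 members (miR-6720-5p, miR-6720-3p, miR-6724-5p, miR-6733-5p, miR-6834-5p and miR-6847-5p). Both miR-6720 arms lie only opposite FOXF2, and miR-6724-5p has no host gene. miR-6733-5p and miR-6834-5p count as exonic above, and miR-6847-5p has no RefSeq locus. Whether any of these members is a mirtron was not tested.

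**Figure D3:**
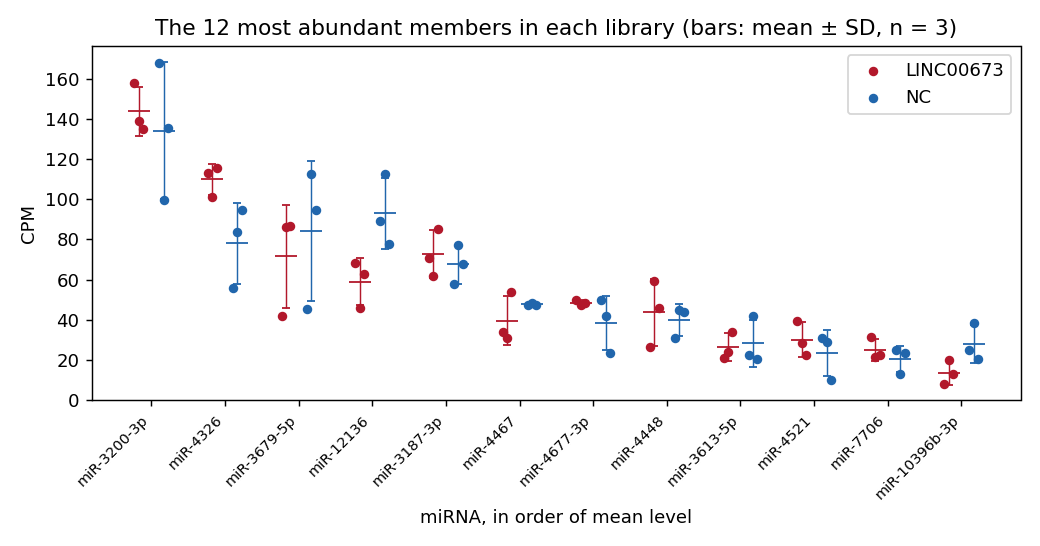
CPM of the 12 most abundant members in each library, LINC00673 in red left of NC in blue, with bars for the mean ± SD (n = 3 each). The groups do not overlap for miR-4326 (higher in LINC00673), miR-12136 and miR-10396b-3p (both lower in LINC00673), and overlap for the other 9.

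No member passed the adjusted threshold between LINC00673 and NC libraries. limma was run on log2(CPM + 1) over the 810 rows whose mean reached 1 CPM, a filter that every member passes by its selection, and a difference on this scale depends on the pseudocount of 1. It can be smaller than the change in reads for low miRNAs, and larger where a library is at 0, as for miR-7156-5p, with a log2 difference of 1.03 in limma and 0.15 in edgeR. At an adjusted p under 0.05 it called 0 members higher, against a background of 0.247% of the 810, and 0 members lower, against 0.0%. At an unadjusted p under 0.05, 1 member was higher (1.43%, background 6.67%) and 6 were lower (8.57%, background 4.44%). edgeR's quasi-likelihood test on the recovered reads called 0 members, against backgrounds of 1.85% higher and 0.864% lower, with 2 members higher (background 8.89%) and 5 lower (background 3.95%) at an unadjusted p under 0.05. DESeq2 also called 0 members, against 0.37% higher and 0.864% lower, with 0 members higher (background 3.09%) and 3 lower (background 3.46%) at an unadjusted p under 0.05 and no adjusted p for 48 members.

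The members split evenly by sign, 35 above 0 and 35 below, with a median log2 difference of 0.01. Over all 810 miRNAs tested, 431 were above 0 and 379 below, with a median of 0.06. The LINC00673 range lay wholly above the NC range for 3 members (4.29%, background 7.78%), and wholly below it for 9 (12.9%, background 7.65%). By host context, 22 of the 30 intronic members were above 0 (median 0.13), as were 2 of 8 exonic members (median -0.60). So were 2 of 5 in non-coding genes (median -0.05), 1 of 7 opposite a gene (median -0.21) and 3 of 13 without a GENCODE host (median -0.34). These counts are descriptions with no test, and they use limma's signs, which depend on the setting. In DESeq2 the intronic miR-3691-5p, miR-3126-3p, miR-3174, miR-4766-3p, miR-4653-3p and miR-3167 were below 0 instead. The intronic miR-4804-5p was above 0 there instead of below. In edgeR miR-3174 and miR-4653-3p turned to below 0, and miR-4804-5p and miR-3127-5p to above 0. The 13 without a GENCODE host include the 3 identical miR-3689 rows and both miR-10396 rows, and the 7 include both miR-6720 arms. Such rows are not independent of each other. The half-width of the 95% interval was a median of 1.42 on the log2 scale over all members and 0.74 over the 10 most abundant.

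**Figure D4:**
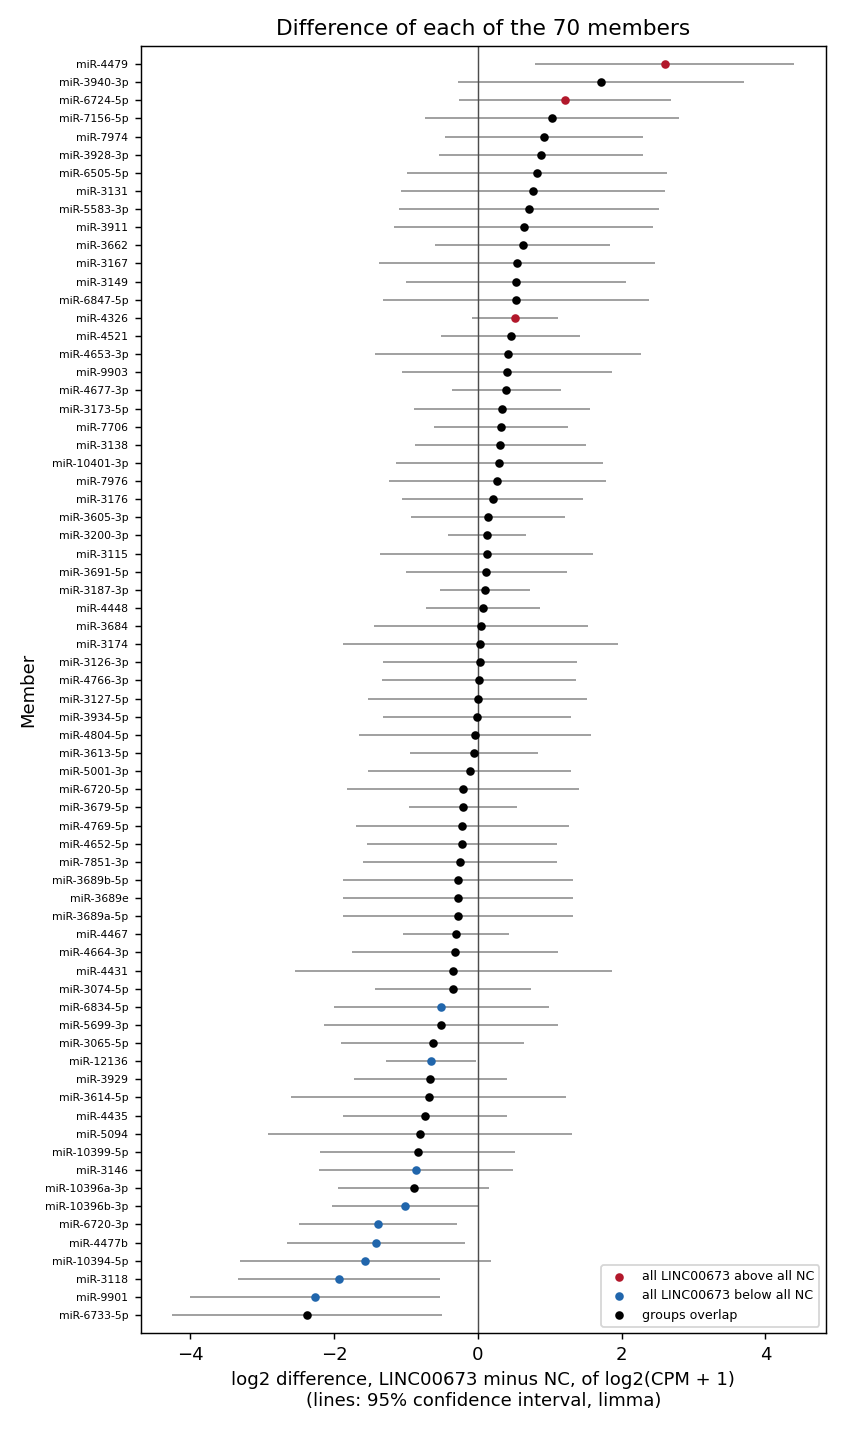
Log2 difference, LINC00673 minus NC, of log2(CPM + 1) for each of the 70 members, with 95% confidence intervals from limma (lines). Red points mark the 3 members with all LINC00673 libraries above all NC libraries, blue points the 9 with all below, and the intervals of 63 members include 0.

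A mean of at least 5 CPM was reached in both groups by 58 members and in a single group by 12, of which 8 were under 5 CPM in LINC00673 libraries and 4 in NC libraries. Such members entered the selection through the group where they were higher, so their differences are no support for a change. They include miR-4479, miR-3940-3p, miR-6724-5p, miR-3118, miR-9901, miR-6733-5p, miR-6834-5p and miR-10394-5p. Among the other 58, the groups did not overlap for 1 member on the higher side (1.72%, background 7.78%). On the lower side this held for 5 (8.62%, background 7.65%). At an unadjusted limma p under 0.05, 0 of the 58 were higher (background 6.67%) and 3 were lower (5.17%, background 4.44%).

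The members furthest to the higher side were miR-4479, miR-4326, miR-3940-3p, miR-6724-5p and miR-7974, taken by their p-values. miR-4479, in an intron of the signalling adaptor gene TRAF2 (chr9:136886777-136886798, plus strand), had 10.52, 6.74 and 11.8 CPM in LINC00673 libraries, against 4.14, 0.0 and 0.0 CPM in NC libraries. Every LINC00673 library was above every NC library, on 18 reads in LINC00673 libraries and 2 reads in NC libraries. The ratio of depth-scaled reads, pooled by group, was 5.21 (95% exact interval 1.25 to 46.3, which covers counting error only). The log2 difference was 2.60 (interval 0.79 to 4.40), and the smallest adjusted p of all members in limma, 0.182, belonged to miR-4479. It reached a mean of 5 CPM in LINC00673 libraries only, so its difference is no support for a change.

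miR-4326, with a mean of 93.9 CPM, had 113.07, 101.03 and 115.39 CPM in LINC00673 libraries, against 55.86, 83.48 and 94.73 CPM in NC libraries. The groups did not overlap. The log2 difference was 0.52 (interval -0.08 to 1.12, limma adjusted p = 0.520). It was the most deeply read member with no overlap, at 287 reads.

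miR-3940-3p had 5.26, 4.04 and 11.8 CPM in LINC00673 libraries, against 10.35, 0.0 and 0.0 CPM in NC libraries (difference of 1.72 on the log2 scale, limma adjusted p = 0.520). For miR-3940-3p the log2 difference was 0.78 in edgeR and 0.82 in DESeq2, and leaving out 1 library at a time gave 1.13 to 2.89. miR-6724-5p, whose locus is near the rRNA genes, had 7.89, 14.82 and 7.87 CPM in LINC00673 libraries, against 2.07, 3.21 and 6.77 CPM in NC libraries (difference of 1.21 on the log2 scale, limma adjusted p = 0.546). miR-7974 had 18.41, 9.43 and 22.29 CPM in LINC00673 libraries, against 2.07, 9.63 and 20.3 CPM in NC libraries (difference of 0.92 on the log2 scale, limma adjusted p = 0.660). For miR-7974 it was 0.16 without NC replicate 1 and 1.55 without NC replicate 3. Of these, miR-6724-5p alone had groups that did not overlap. Both miR-3940-3p and miR-6724-5p reached a mean of 5 CPM in LINC00673 libraries only, so their differences are no support for a change. A copy of miR-6724-5p lies 3703 bases from miR-10396b-3p, but reads of its copies cannot be told apart.

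On the lower side, miR-3118 had 2.63, 2.69 and 2.62 CPM in LINC00673 libraries, against 12.41, 12.84 and 13.53 CPM in NC libraries. These were 1, 2 and 2 reads in LINC00673 libraries and 6, 4 and 4 reads in NC libraries, with no overlap between the groups. The log2 difference was -1.93 (interval -3.34 to -0.53, limma adjusted p = 0.203). Its replicates were closer together than counting error gives, as stated above. miR-3118 reached a mean of 5 CPM in NC libraries only, so its difference is no support for a change. miR-134-5p, which has the same seed, averaged 124 ± 16.8 CPM in LINC00673 libraries and 83.2 ± 33.8 CPM in NC libraries (mean ± SD, n = 3 per group). The log2 difference of miR-134-5p was 0.63 (limma adjusted p = 0.425), so neither carrier of this seed passed the threshold.

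miR-6720-3p (chr6:1390324-1390345, minus strand) had 10.52, 10.78 and 5.24 CPM in LINC00673 libraries, against 31.04, 16.05 and 27.07 CPM in NC libraries. The groups did not overlap, on 16 and 28 reads, and no library was under 4 reads. The averages were 8.85 ± 3.13 CPM in LINC00673 libraries and 24.7 ± 7.77 CPM in NC libraries (mean ± SD, n = 3 per group), with a log2 difference of -1.39 (interval -2.49 to -0.29). limma's adjusted p was 0.255, and edgeR's was 0.136. The edgeR value was the lowest of any member in the 16 fits, and over the alternatives the adjusted p of miR-6720-3p ran from 0.136 to 0.709. The 5p arm of the same hairpin had 2.63, 10.78 and 5.24 CPM in LINC00673 libraries, against 2.07, 6.42 and 16.92 CPM in NC libraries, with overlapping groups (log2 difference for miR-6720-5p -0.20, limma adjusted p = 0.966).

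miR-9901 had 2.63, 1.35 and 0.0 CPM in LINC00673 libraries, against 6.21, 16.05 and 6.77 CPM in NC libraries. The groups did not overlap, on 2 and 10 reads, a depth-scaled ratio of 0.116 (95% exact interval 0.0123 to 0.543), with a log2 difference of -2.27 (limma adjusted p = 0.240). miR-6733-5p had 0.0, 0.0 and 3.93 CPM in LINC00673 libraries, against 10.35, 12.84 and 3.38 CPM in NC libraries. Here LINC00673 replicate 3 was above NC replicate 3, on 3 and 10 reads by group, a ratio of 0.174 (95% exact interval 0.0307 to 0.674). The log2 difference of miR-6733-5p was -2.37 (limma adjusted p = 0.255). Like miR-3118, miR-9901 and miR-6733-5p reached a mean of 5 CPM in NC libraries only, so their differences are no support for a change. Their exact intervals pool the reads of each group and cover counting error only. miR-4477b had 5.26, 4.04 and 7.87 CPM in LINC00673 libraries, against 14.48, 22.48 and 13.53 CPM in NC libraries, with no overlap (log2 difference -1.41, limma adjusted p = 0.357). The remaining members with all LINC00673 libraries below all NC libraries were miR-3146 (log2 difference -0.86), miR-6834-5p (-0.51) and miR-10394-5p (-1.56).

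**Figure D5:**
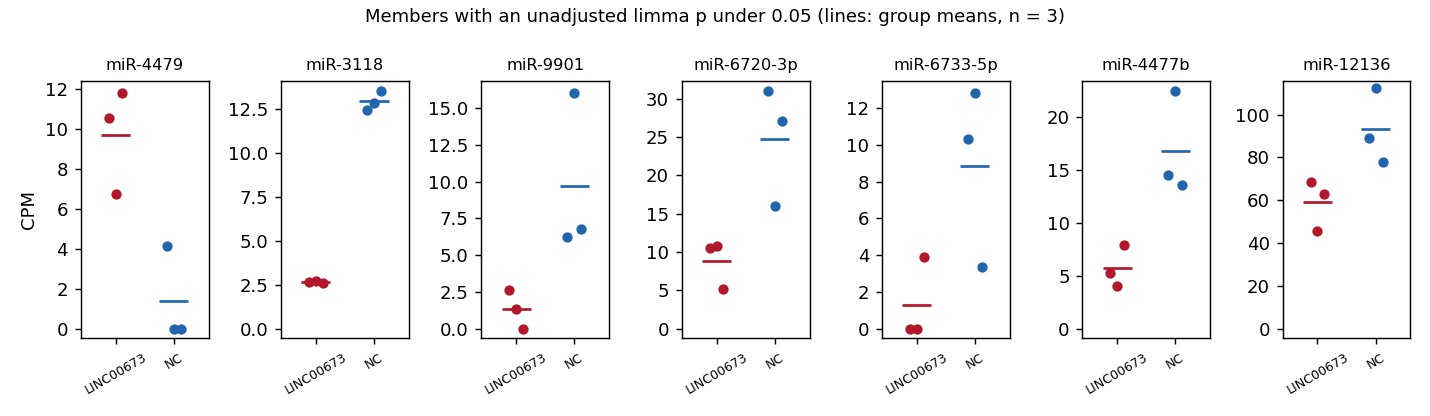
CPM in each library of the 7 members with an unadjusted limma p under 0.05, LINC00673 in red left of NC in blue, with lines for the group means (n = 3 each). miR-4479 is higher and the other 6 are lower in LINC00673 libraries, the groups overlap for miR-6733-5p only, and the adjusted p-values run from 0.182 to 0.418.

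With the left-out names put back there were 75 members. The smallest limma adjusted p was then 0.0625, and 0 of 75 passed the threshold.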

How the data were processed

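Libraries were made from TRIzol-extracted RNA with a NEBNext small RNA kit, per the labels' protocols. Adapter ligation depends on sequence, so levels of different miRNAs are no molar ratio. The authors deposited CPM per mature miRNA, on build hg38 per the submitters' processing notes. No source used here gives the aligner, the counter, the miRBase release or how reads with several matches were handled. All CPM values (100%) were whole reads within 0.1 read. The listed rows held 68.6% to 72.0% of the denominators.

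limma 3.58.1 (R 4.3.3, intensity trend, two-sided) was run on log2(CPM + 1) with Benjamini-Hochberg adjustment over 810 miRNAs, those whose mean reached 1 CPM. It called 2 higher and 0 lower. edgeR 4.0.16 (quasi-likelihood test, TMM), which called 15 higher and 7 lower, and DESeq2 1.42.0 were run on the recovered reads. The code was tested on simulated data. Other alternatives changed the pseudocount, filter, scaling, block and libraries.

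Members, lists and alternatives were chosen with earlier results of these data known. Values per library are given for the 10 highest members, the 5 smallest p-values in each direction, identical rows and the edges of the threshold, and every member is named. The host genes of 2 members are not reported here.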

Additional observations from a re-analysis of the deposited data

How the results depend on the processing

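No member passed an adjusted p of 0.05 in any of the 16 fits. Over the whole table limma called 2 miRNAs higher and 0 lower. The number called higher became 0 with a pseudocount of 0.5, with a filter of 5 CPM, after rescaling to the listed total, and without any single library of either group (0 to 0), 4 with no filter and 15 with edgeR. The number lower became 5 with a pseudocount of 5, and 7 with no filter, with edgeR and with DESeq2. With a mean of at least 10 CPM there were 30 members, and with at least 2 CPM 154. Same-numbered libraries had correlations of 0.03, 0.07 and 0.01 of their deviations and were not treated as paired, and the fit with a replicate block called 2 higher and 0 lower. Of 360 log2 differences (24 named members, 15 settings), 337 kept their sign and 23, in 11 members, turned. miR-3613-5p turned to 0.0513 with TMM and 0.0645 with edgeR, and miR-3689a-5p, miR-3689b-5p and miR-3689e each to 0.0603 with edgeR. Leaving out 1 library at a time gave log2 differences of -0.069 to 0.304 for miR-3200-3p, -0.594 to 0.134 for miR-3679-5p, -0.0164 to 0.210 for miR-3187-3p, -0.177 to 0.394 for miR-4448, -0.243 to 0.260 for miR-3613-5p, -0.0347 to 0.727 for miR-4521, -0.877 to 0.0322 for each of miR-3689a-5p, miR-3689b-5p and miR-3689e, -0.491 to 1.12 for miR-6847-5p and -1.36 to 0.229 for miR-3614-5p. The cause was not tested.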
